A study of Mus musculus with 16 samples.

Results

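The 6 genes described here encode cytokines of the interleukin-6 (IL-6) family and the receptors that bind them. They were chosen by name, as Il6, Lif and Osm for the ligands and Il6ra, Il6st and Osmr for the receptors. Each symbol matched 1 gene of the 55487 in the deposited count table, so all 6 were found. The cells were BMDMs, that is, macrophages derived from bone marrow in culture, here of WT Balb/c mice aged 8 weeks. They were treated with conditioned media (CM) of 4T1 cells, a mouse mammary tumor line whose medium holds a mixture of secreted factors, or kept in DMEM, the medium without tumor factors. All were starved of serum for 2 h before treatment. RNA of 16 samples was sequenced in 6 groups. DMEM had 2 samples, DMEM + Rux 3, CM 3, CM + Rux labelled 4h had 3, CM + Rux labelled 2h had 2, and CM + Rux + IKK-16 had 3. Ruxolitinib (Rux), a drug against the Janus kinases JAK1 and JAK2, was used at 0.5 μM in CM, while its dose in DMEM is not given in the sources used here. In the CM groups that had it, the drug was already added during the pre-treatment. IKK-16 inhibits the kinases IKKα and IKKβ and was used at 0.8 μM, always together with ruxolitinib, so no group had IKK-16 alone. No source used here explains the 2h in the sample names, so those samples stay a group of their own. Below, CM + Rux without a time means the group labelled 4h.

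IL-6 binds the IL-6 receptor, which Il6ra encodes, and the pair then engages gp130, the signaling subunit that Il6st encodes. Leukemia inhibitory factor, the product of Lif, uses gp130 with the LIF receptor. Oncostatin M, the product of Osm, is made mainly by leukocytes and in the mouse uses gp130 with the receptor that Osmr encodes. JAK kinases bound to gp130 phosphorylate STAT3, and SOCS3 and other brakes switch the receptor off again. Ruxolitinib thus acts on kinases downstream of these receptors. IKK-16 acts on the kinases that free NF-κB, a transcription factor well known to drive Il6 in macrophages.

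Il6 (ENSMUSG00000025746) lies on the plus strand at chr5:30013114-30019981 of GRCm38. Lif (ENSMUSG00000034394) at chr11:4257557-4272514 and Osm (ENSMUSG00000058755) at chr11:4236420-4241026 are neighbors on the plus strand of chromosome 11, with 16530 bases between them. Il6ra (ENSMUSG00000027947) lies on the minus strand at chr3:89864059-89913196, and Il6st (ENSMUSG00000021756) on the plus strand at chr13:112464070-112510086. Osmr (ENSMUSG00000022146) lies on the minus strand at chr15:6813577-6874969. Of the 6, Il6ra alone overlaps another annotated gene, Gm42809 on the opposite strand, which had 3 counts in all samples together.

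The 250 bases before the start site were available for 5 of the 6 genes from RefSeq, on GRCm38.p6. Windows of 3 genes are shown because these genes were called when an inhibitor was added in the presence of CM. Il6 and Lif were called when IKK-16 was added to CM + Rux, and Lif and Il6ra when ruxolitinib was added to CM. Sequences run 5′ to 3′ on the strand of the gene, and capitals mark matches to 4 motifs searched on both strands. These were the κB consensus, the STAT motif TTCNNNGAA, the AP-1 motif TGANTCA and the C/EBP motif TTGNNCAA. No match overlapped another.
Il6, chr5:30012864-30013113, plus strand: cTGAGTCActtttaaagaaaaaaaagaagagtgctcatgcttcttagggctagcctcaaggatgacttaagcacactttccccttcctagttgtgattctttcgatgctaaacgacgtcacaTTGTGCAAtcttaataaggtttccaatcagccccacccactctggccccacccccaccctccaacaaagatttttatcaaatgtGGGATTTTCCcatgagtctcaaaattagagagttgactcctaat
Lif, chr11:4257318-4257567, plus strand: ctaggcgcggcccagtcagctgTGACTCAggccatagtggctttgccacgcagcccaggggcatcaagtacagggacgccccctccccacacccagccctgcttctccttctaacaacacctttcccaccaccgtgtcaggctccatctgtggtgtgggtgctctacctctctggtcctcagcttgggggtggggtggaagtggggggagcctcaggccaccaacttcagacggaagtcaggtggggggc
Il6ra, chr3:89913197-89913446, minus strand: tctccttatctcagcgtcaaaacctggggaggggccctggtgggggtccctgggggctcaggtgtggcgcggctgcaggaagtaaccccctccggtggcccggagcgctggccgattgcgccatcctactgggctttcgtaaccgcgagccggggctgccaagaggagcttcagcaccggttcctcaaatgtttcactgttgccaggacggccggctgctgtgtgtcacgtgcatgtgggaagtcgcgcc
The Il6 window held a κB match, GGGATTTTCC, whose first base is 44 bases before the start site, a C/EBP match at 128 bases and an AP-1 match at 249 bases. The Lif window held an AP-1 match at 228 bases and no κB match, and the windows of Il6ra, Il6st and Osmr held none of the 4 motifs. Among 32851 windows of the same length, 3.9% held the κB consensus, 7.02% the STAT motif, 6.75% the AP-1 motif and 5.65% the C/EBP motif. A match describes letters in the window and was not tested for binding.

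Levels are given as CPM, the counts of a gene per 1e+06 counts of its library, after scaling by relative log expression (RLE). The samples held 18449388 to 46215853 counted fragments. The table was tested as a whole with the quasi-likelihood test of edgeR, and p-values were adjusted by the Benjamini-Hochberg method over the 12372 genes above 1 CPM in at least 2 samples. A gene was called when its adjusted p was under 0.05 and its log2 fold change above 0.5 or below -0.5. The filter was applied to CPM before RLE scaling. Of the 6 genes, 5 passed it, and Osmr, which stayed near or below 1 CPM, did not. The labels do not say whether replicates came from separate mice or cultures, so the p-values measure the spread between these samples, which may be technical. Macrophage markers fit the label, with all 8 of the list tested and a sum of 40148.5 to 57182.6 CPM per sample. Lyz2 made up most of this sum. Mertk was the lowest of the list, with means of 25.4 CPM in DMEM and 5.18 CPM in CM + Rux.

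**Figure D1:**
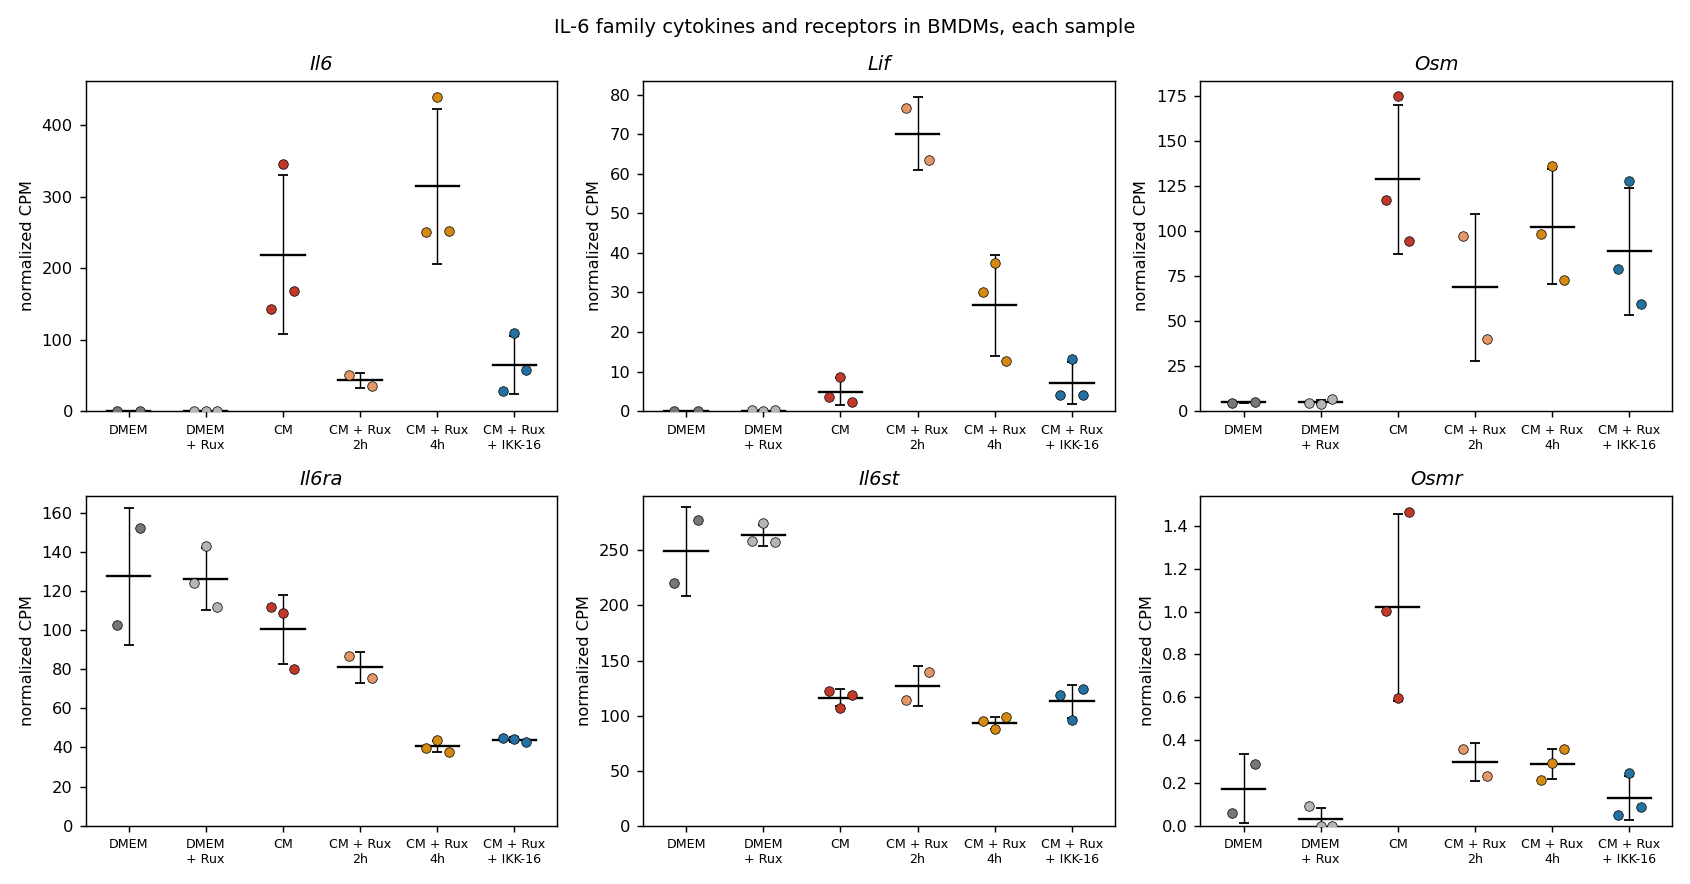
Normalized CPM (linear axes from 0) of the 6 genes in every sample of the 6 groups. Points are samples, horizontal lines are means and bars are ± SD. Il6 was at 0 in all DMEM and DMEM + Rux samples, Lif was highest in the CM + Rux 2h samples at 63.6 and 76.8 CPM, and Il6ra was lowest in the CM + Rux and CM + Rux + IKK-16 samples at 37.9 to 45.0 CPM.

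In CM the 3 ligand genes rose from little or nothing, and the gp130 gene Il6st fell to less than its level in DMEM. Il6, Lif and Osm were called higher, which is 3 of the 5 genes tested where 20.9% of all genes tested were called higher. Il6 and Lif passed the filter only through groups with CM, so the filter itself favored their rise. Il6st was called lower, where 24.1% of all genes were, and Il6ra was not called. Scaling by total counts alone would shift the log2 fold changes here down by 0.31. That shift turns the direction of none of the 4 called members. It would carry Il6ra, at -0.34 with RLE scaling, past the fold threshold for a lower call. Whether Il6ra would then be called was not tested, so its lack of a call holds for RLE scaling.

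Il6 had 0 counts in each of the 2 DMEM and 3 DMEM + Rux samples. At this depth, 0 counts allow up to 0.123 CPM in DMEM and 0.139 CPM in DMEM + Rux, limits that cover counting error only. In the 3 CM samples Il6 had 143, 346 and 168 CPM. CM replicate 2 was the highest, and no CM sample came near the DMEM samples. The mean in CM was 219 ± 111 CPM (SD, n = 3), at least 1782-fold above the limit for DMEM (adjusted p = 5.4e-06, edgeR). In these bulk samples, more expressing cells and more RNA per cell cannot be told apart.

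Lif, the cytokine named for its effect on leukemia cells, had 1 and 2 counts in the DMEM samples, or 0.0296 and 0.0819 CPM. It had 3.67, 8.74 and 2.36 CPM in the CM samples, all above both DMEM samples. This was a log2 rise of 6.52 (standard error, SE, 1.29, adjusted p = 5.8e-04, edgeR). Since DMEM holds so few counts, the size of this rise is uncertain, with a 95% interval from 3.75 to 9.29 on the log2 scale. The ratio of summed counts, scaled for depth, was 107-fold with a 95% interval from 36.2 to 519. That second interval covers counting error only and leaves out the spread between samples.

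Osm was the ligand gene with a measurable level in plain medium. It had 4.58 and 4.95 CPM in DMEM and 117, 175 and 94.3 CPM in CM, with no overlap. On the log2 scale the rise was 4.76 (SE 0.51, adjusted p = 2.7e-06, edgeR), or 27.1-fold.

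Il6st had 221 and 278 CPM in DMEM and 122, 107 and 119 CPM in CM. The 3 CM samples lay close together and under both DMEM samples. The fall was 2.15-fold, with a log2 fold change of -1.10 (SE 0.12, adjusted p = 3.9e-06, edgeR). Il6ra had 103 and 152 CPM in DMEM and 112, 109 and 80.2 CPM in CM. Its groups overlapped, and the log2 fold change of -0.34 (95% interval -0.69 to 0.0066, adjusted p = 0.081, edgeR) was not called. Without DMEM replicate 1, the lower of the DMEM samples, Il6ra was called lower in CM, at -0.60 (adjusted p = 0.0082, edgeR).

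Osmr, the receptor gene for oncostatin M, had 2 and 7 counts in DMEM (0.0591 and 0.287 CPM) and 18, 20 and 36 counts in CM (1.001, 0.594 and 1.47 CPM). Every CM sample was above both DMEM samples, and all values were low. With no filter on low counts, in a test of 24476 genes of which 11.9% were called higher, Osmr was called higher in CM with a log2 fold change of 2.63 (adjusted p = 0.0017, edgeR). Its ratio of summed counts, scaled for depth, was 6.29 (95% interval 3.14 to 14.3, which covers counting error only). Markers of epithelial cells, the origin of the 4T1 line, moved the same way at levels this low. None of the 8 passed the filter, and their sum was 0 to 0.118 CPM in DMEM and 0.774 to 1.56 CPM in CM. The sum was 0.0447 to 0.231 CPM in DMEM + Rux, 0.331 to 0.351 in CM + Rux 2h, 0.121 to 0.917 in CM + Rux and 0.184 to 0.722 in CM + Rux + IKK-16, with Krt5 and Krt14 at 0 in every sample. Their part in the Osmr values was not tested.

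Set per length, as CPM per kilobase of exon, Il6 and Osm stood below Il6ra and Il6st in DMEM and above them in CM. In DMEM the levels were 22.4 ± 3.64 for Il6st and 14.7 ± 4.05 for Il6ra against 2.098 ± 0.116 for Osm, 0.0143 ± 0.0133 for Osmr and 0.0128 ± 0.00850 for Lif (SD, n = 2), and Il6 was at 0. In CM they were, on this scale, 90.1 ± 45.6 for Il6 and 56.6 ± 18.2 for Osm against 11.6 ± 2.03 for Il6ra and 10.5 ± 0.704 for Il6st (SD, n = 3). Lif in CM had 1.13 ± 0.774 and Osmr 0.0843 ± 0.0360 (SD, n = 3), so the mRNA of the signaling subunit gp130 stood far above that of the receptor chain for oncostatin M.

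**Figure D2:**
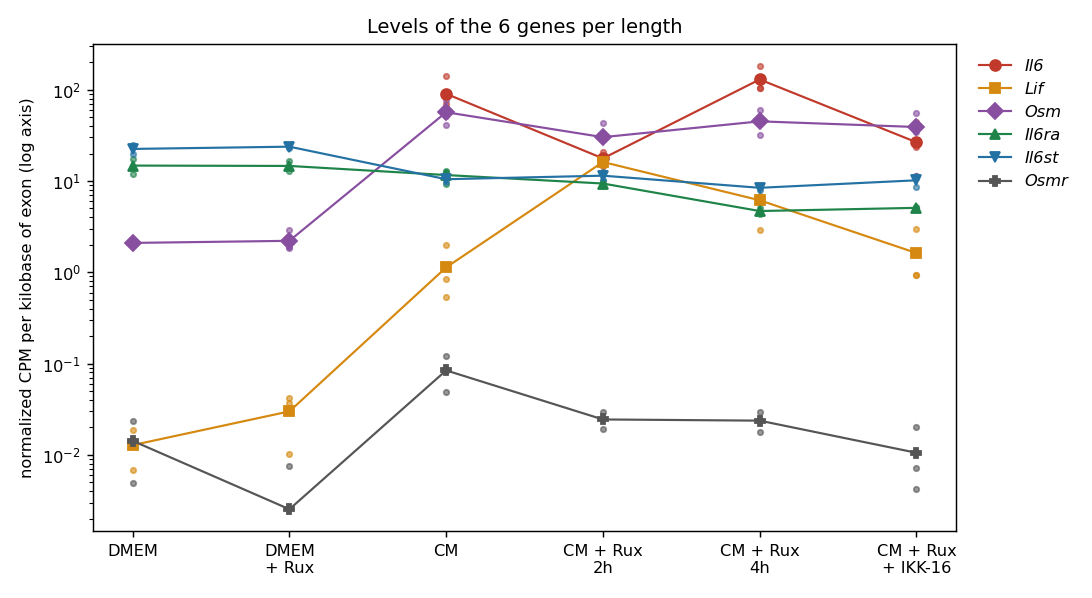
CPM per kilobase of exon (log axis) of the 6 genes by group, with lines joining the group means and small points for samples above 0. Il6 has no point in DMEM and DMEM + Rux because every sample there was at 0. Il6st and Il6ra lead in DMEM, and Il6 and Osm lead in CM.

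Adding ruxolitinib to CM raised Lif and lowered Il6ra, and left Il6 and Osm without a call. Of the 5 genes tested, 1 was called higher, where 1.2% of all genes tested were, and 1 was called lower, where 2.13% were. With samples paired by replicate number (a replicate block) these shares of all genes were 2.47% and 3.56%, and the same 2 members were called.

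Il6ra encodes the chain that gives cells their response to IL-6. It had 112, 109 and 80.2 CPM in CM and 39.9, 43.7 and 37.9 CPM in CM + Rux. The groups did not overlap, and the CM + Rux samples lay close together. Il6ra fell 2.47-fold, at -1.31 on the log2 scale (SE 0.15, adjusted p = 1.9e-04, edgeR). In DMEM, where ruxolitinib was also given, Il6ra had 124, 143 and 112 CPM with it and 103 and 152 CPM without it. Those groups overlapped, with a log2 fold change of -0.011 (95% interval -0.36 to 0.34). An interaction term, which subtracts the change in DMEM from that in CM, gave -1.30 for Il6ra (95% interval -1.78 to -0.82, adjusted p = 0.026, edgeR). Il6ra was the 1 member called by it, where 0.178% of all genes were called lower. Il6, at 0 in every sample of both DMEM groups, could not be called by it. With the DMEM group at 2 samples this call is not firm. Leaving out DMEM replicate 1 gave an adjusted p of 0.13, DMEM + Rux replicate 1 gave 0.056 and DMEM + Rux replicate 2 gave 0.051. Leaving out CM replicate 1 or 2 gave 0.070 or 0.053, and CM + Rux replicate 1 or 3 gave 0.065 or 0.058.

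Lif had 3.67, 8.74 and 2.36 CPM in CM and 30.2, 37.4 and 12.7 CPM in CM + Rux. All CM + Rux samples were above all CM samples, and replicate 3 was the lowest of both groups. Lif rose 5.30-fold, at 2.41 on the log2 scale (SE 0.52, adjusted p = 0.016, edgeR). The call was lost on leaving out CM replicate 1 (adjusted p = 0.069), CM replicate 3 (0.062) or CM + Rux replicate 1 (0.058). Those fits were unpaired. With the replicate block and all samples, Lif was called at 2.46 (adjusted p = 2.0e-04, edgeR). In DMEM the Lif counts were 4, 2 and 5 with ruxolitinib and 1 and 2 without it, too few to show a difference, and the interaction of 1.32 had a 95% interval from -5.69 to 8.33.

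Il6 had 143, 346 and 168 CPM in CM and 251, 440 and 252 CPM in CM + Rux. The groups overlapped, with replicate 2 the highest in each. Its log2 fold change of 0.52 (95% interval -0.49 to 1.53, adjusted p = 0.72, edgeR) was not called. By replicate number, Il6 was higher with ruxolitinib in 3 of 3 pairs, and with the replicate block its log2 fold change was 0.59 (adjusted p = 0.065, edgeR), still not called. In DMEM no comparison is possible because every sample was at 0. Osm had 98.2, 136 and 72.5 CPM in CM + Rux, inside the range it had in CM but for the lowest sample, and its log2 fold change was -0.33 (95% interval -1.07 to 0.41, adjusted p = 0.78, edgeR).

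Il6st had 94.7, 87.4 and 98.3 CPM in CM + Rux, below all 3 CM samples. The log2 fold change of -0.31 (95% interval -0.55 to -0.072, adjusted p = 0.16, edgeR) was not called. In DMEM + Rux Il6st had 258, 275 and 258 CPM against 221 and 278 CPM in DMEM, a log2 fold change of 0.082 (95% interval -0.18 to 0.35). Osm in DMEM + Rux had 4.29, 4.18 and 6.61 CPM, and its log2 fold change of 0.079 had a 95% interval from -0.96 to 1.12. None of the 5 genes tested was called between DMEM + Rux and DMEM, where 0.97% of all genes were. Il6 was at 0 in every sample there and could not be called, and Lif had too few counts to show a difference. No unadjusted p of Lif, Osm, Il6ra or Il6st was under 0.05 there in edgeR, and DESeq2 called none either. Osmr had 8, 12 and 7 counts in CM + Rux (0.216, 0.291 and 0.356 CPM), all below the CM samples. With no filter on low counts, where 1.7% of genes were called lower, Osmr was called lower than in CM at -1.83 (adjusted p = 0.038, edgeR).

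With IKK-16 added to CM + Rux, Il6 and Lif fell, and Osm and the receptor genes were not called. Of the 5 genes tested, 2 were called lower, where 3.66% of all genes were, and none higher, where 4.07% were. With the replicate block the same 2 members were called and 5.04% of all genes were lower.

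Il6 had 251, 440 and 252 CPM in CM + Rux and 27.5, 109 and 57.3 CPM in CM + Rux + IKK-16. All 3 samples with IKK-16 were below all 3 without it. Il6 fell 4.88-fold, at -2.29 on the log2 scale (SE 0.48, adjusted p = 0.010, edgeR). Against CM alone, Il6 with both inhibitors had a log2 fold change of -1.77 (95% interval -2.81 to -0.72, adjusted p = 0.021, edgeR), again with no overlap. This second call was lost without CM replicate 2 (adjusted p = 0.089), CM + Rux + IKK-16 replicate 1 (0.058) or replicate 3 (0.073).

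Lif had 30.2, 37.4 and 12.7 CPM in CM + Rux and 4.05, 13.1 and 4.05 CPM in CM + Rux + IKK-16. The highest sample with IKK-16 was just above the lowest without it. Lif fell 3.84-fold, at -1.94 on the log2 scale (SE 0.50, adjusted p = 0.018, edgeR). The adjusted p passed 0.05 when a sample was left out of the unpaired fit, at 0.051 or 0.068 for CM + Rux replicate 1 or 2. It was 0.084 or 0.076 for CM + Rux + IKK-16 replicate 1 or 3. With the replicate block and all samples, Lif was called at -2.00 (adjusted p = 3.5e-04, edgeR). Against CM alone, Lif with both inhibitors had a log2 fold change of 0.47 (95% interval -0.66 to 1.596, adjusted p = 0.57, edgeR).

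Osm had 78.9, 128 and 59.4 CPM with both inhibitors, and its log2 fold change from CM + Rux was -0.21 (95% interval -0.95 to 0.53, adjusted p = 0.75, edgeR). Against CM it was -0.54 (adjusted p = 0.29, edgeR), and with the replicate block -0.56 (adjusted p = 0.047, edgeR), so that pairing the samples by number decides this call. Il6ra stayed at its level in CM + Rux, with 45.0, 44.1 and 42.6 CPM and a log2 fold change of 0.11 (95% interval -0.21 to 0.43). It was called lower than in CM at -1.19 (SE 0.15, adjusted p = 1.1e-04, edgeR). Thus Il6 and Il6ra were called lower with both inhibitors than with CM alone, 2 of 5 where 6.13% of all genes were, and none was called higher, where 6.6% were.

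Il6st had 119, 95.7 and 124 CPM with both inhibitors. Its log2 fold change was 0.27 from CM + Rux (95% interval 0.034 to 0.51, adjusted p = 0.12, edgeR) and -0.039 from CM (95% interval -0.28 to 0.20). Osmr had 2, 8 and 3 counts (0.0515, 0.245 and 0.0874 CPM). With no filter on low counts it was called lower than in CM at -2.98 (adjusted p = 1.9e-04, edgeR), where 3.65% of genes were, and not called against CM + Rux at -1.15 (adjusted p = 0.42, edgeR).

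**Figure D3:**
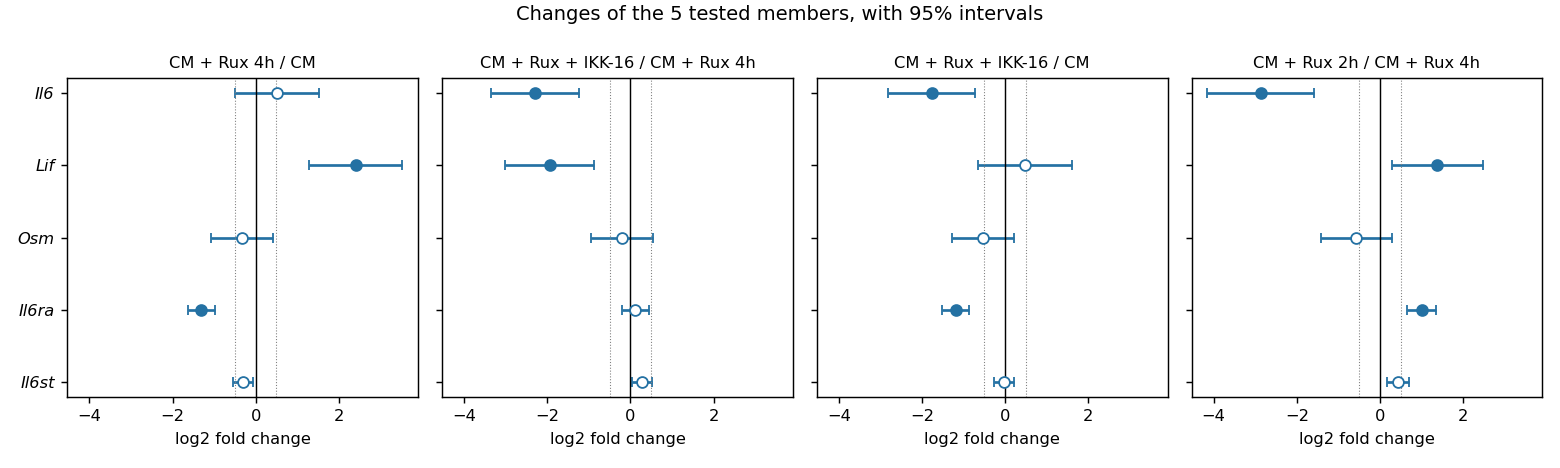
Log2 fold changes of the 5 tested genes in 4 comparisons, with 95% intervals from edgeR. Filled points were called, open points were not, and dotted lines mark the fold threshold of 0.5. Il6 is negative and called in the 3 panels with IKK-16 or the 2h group, and Il6ra is negative and called in both comparisons with CM.

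Among the genes tested, those called in CM against DMEM were called in the same direction with the inhibitors. Il6ra was called against DMEM with the inhibitors and not in CM alone. In CM + Rux and in CM + Rux + IKK-16 alike, Il6, Lif and Osm were called higher and Il6ra and Il6st lower than in DMEM, so all 5 genes tested were called where 43.5% and 33.3% of all genes were. These comparisons share the DMEM samples with each other and with CM against DMEM. Here too the filter favored a rise of Il6 and Lif. Il6 was at least 2558-fold above the DMEM limit in CM + Rux and at least 525-fold above it in CM + Rux + IKK-16. Osm was 21.5-fold and 18.6-fold above DMEM. Il6ra had log2 fold changes of -1.65 and -1.54 and Il6st of -1.41 and -1.14 in these groups. Osmr, called higher in CM with no filter on low counts, was in that test not called against DMEM with the inhibitors. It was at 0.80 in CM + Rux (adjusted p = 0.51, edgeR) and -0.35 in CM + Rux + IKK-16 (adjusted p = 0.88, edgeR).

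The 2 samples of CM + Rux labelled 2h set the ligand genes in another order. Of the 5 genes tested, 2 were called higher than in the 4h group, where 12.6% of all genes were, and 1 was called lower, where 10.7% were. Lif had 76.8 and 63.6 CPM in the 2h samples, its highest values in the series, against 12.7 to 37.4 CPM in the 4h samples. It was 2.60-fold higher, at 1.38 on the log2 scale (SE 0.51, adjusted p = 0.047, edgeR). This call sat at the threshold and was lost in 12 of 23 alternatives, with DESeq2 among them (adjusted p = 0.12). Over the alternatives the log2 fold change ran from 1.06 to 1.69 and the adjusted p from 6.7e-04 to 0.18. With the replicate block, which has 2 pairs here, Lif was called at 1.46 (adjusted p = 0.0022, edgeR), where 13.3% of all genes were called higher. Against CM alone, Lif in the 2h samples was higher by 3.79 on the log2 scale (SE 0.56, adjusted p = 1.2e-04, edgeR), with no overlap, where 14.6% of all genes were called higher. Here and below, ruxolitinib and the labelled time cannot be told apart when the 2h group is set against CM.

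Il6 had 50.1 and 35.7 CPM in the 2h samples, far below the 4h samples. The log2 fold change from the 4h group was -2.87 (SE 0.58, adjusted p = 0.0028, edgeR), and from CM -2.35 (SE 0.57, adjusted p = 0.0066, edgeR), where 13.3% of all genes were called lower. Il6ra had 86.7 and 75.5 CPM, above all 4h samples, with a log2 fold change of 1.001 (SE 0.16, adjusted p = 3.7e-04, edgeR). From CM it differed by -0.31 (95% interval -0.66 to 0.051, adjusted p = 0.15, edgeR).

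Osm had 97.4 and 39.8 CPM at 2h, a spread that left its log2 fold change from the 4h group at -0.57 (95% interval -1.41 to 0.28, adjusted p = 0.27, edgeR). It was called without the 2h replicate 2, at -1.37 (adjusted p = 0.045, edgeR), and with the replicate block, at -0.66 (adjusted p = 0.035, edgeR). Il6st had 114 and 140 CPM and was above the 4h group by 0.44 (adjusted p = 0.012, edgeR), under the fold threshold. It passed that threshold without the 2h replicate 2, at 0.58 (adjusted p = 0.012, edgeR). Osmr had 13 and 4 counts (0.359 and 0.234 CPM), and with no filter its log2 fold change from the 4h group was 0.14 (adjusted p = 1.0, edgeR).

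Taking each gene over the 6 groups, the order of mean CPM differed by gene. For Il6 it ran CM + Rux, CM, CM + Rux + IKK-16, CM + Rux 2h and then the DMEM groups at 0. In that order CM + Rux and CM were not called apart, nor CM + Rux + IKK-16 and the 2h group, which differed by 0.58 on the log2 scale (95% interval -0.59 to 1.75). For Lif it ran CM + Rux 2h, CM + Rux, CM + Rux + IKK-16, CM, DMEM + Rux and DMEM, where CM + Rux + IKK-16 and CM, and the DMEM groups, were the neighbors not called apart. Osm ran CM, CM + Rux, CM + Rux + IKK-16, CM + Rux 2h, DMEM + Rux and DMEM, and the called step was that from CM + Rux 2h to DMEM + Rux, a difference of 3.78 (adjusted p = 5.0e-06, edgeR) where 18.4% of all genes were higher at 2h. The matching step for Lif, CM above DMEM + Rux, was 5.43 (adjusted p = 1.5e-04, edgeR), where 23.4% of all genes were higher in CM.

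Among the receptor genes, Il6ra ran DMEM, DMEM + Rux, CM, CM + Rux 2h, CM + Rux + IKK-16 and CM + Rux. The step from the 2h group to CM + Rux + IKK-16 was the only called one between neighbors, at -0.89 (adjusted p = 7.7e-04, edgeR), where 12.6% of all genes were called lower. Il6st ran DMEM + Rux, DMEM, CM + Rux 2h, CM, CM + Rux + IKK-16 and CM + Rux, and the called step was that from DMEM to CM + Rux 2h, at -0.97 (adjusted p = 5.0e-05, edgeR), where 20.5% were. Osmr was highest in CM at 1.02 ± 0.436 CPM (SD, n = 3) and next in CM + Rux 2h at 0.296 ± 0.0886 CPM (SD, n = 2). With no filter this step of -1.69 was called (adjusted p = 0.044, edgeR), where 7.33% of genes were called lower, and the neighbors from CM + Rux 2h through CM + Rux, DMEM and CM + Rux + IKK-16 to DMEM + Rux were not called apart. In DMEM + Rux Osmr had 2, 0 and 0 counts, which with no filter gave -2.70 against DMEM (unadjusted p = 0.016, adjusted p = 0.79, edgeR), where 0.735% of genes were called. Replicates with 0 counts allow up to 3 counts, so no fold is read from these.

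The genes whose pattern over the 16 samples was most like each member were found by the root mean square difference of log2 CPM after centering each gene on its mean. For Il6 these were Il1a, an IL-1 family cytokine, and Cxcl3, a neutrophil chemokine, at differences of 0.72 and 0.75, where Il6 itself varied by 5.14. Il1a had mean levels of 2197 CPM in CM, 2324 in CM + Rux and 605 in CM + Rux + IKK-16. For Lif they were Nr4a3, an orphan nuclear receptor, at 0.78 and Il10, an anti-inflammatory cytokine, at 0.92, where Lif varied by 3.27. Il10 had mean levels of 17.8 CPM in CM, 147 in CM + Rux 2h, 69.3 in CM + Rux and 8.55 in CM + Rux + IKK-16. For Osm they were Plaur, the urokinase receptor gene, at 0.31 and Fosl2, an AP-1 subunit gene, at 0.32, where Osm varied by 2.02. Il6ra was nearest to Tent5a at 0.29 and Samhd1 at 0.31, where Il6ra varied by only 0.70. Il6st was nearest to Arhgef7 at 0.14 and BC005537 at 0.15, where Il6st varied by 0.59.

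Other genes of the pathway were read from 7 lists with 62 genes, of which 55 were tested. In CM against DMEM 36 were called higher and 5 lower, where 20.9% and 24.1% of all genes were. Among the other ligands of the family, 3 of 8 passed the filter and all 3 were called higher. Clcf1 and Il27 had means below 1 CPM in both DMEM groups, so the filter itself favored their rise. The same holds for Socs1, Socs2, Cish and Lcn2 of the lists below. Clcf1, a cytokine that also signals through gp130, rose from 0.165 to 14.2 CPM in the mean (log2 fold change 6.34, adjusted p = 1.6e-06, edgeR). Of the 3 other receptor genes tested, 1 was called, Lifr, the partner of gp130 for LIF, with 17.0 ± 1.94 CPM in DMEM (SD, n = 2) and 3.77 ± 0.759 CPM in CM (SD, n = 3). It fell at -2.16 on the log2 scale (adjusted p = 3.2e-07, edgeR). Lif and its receptor gene Lifr thus moved in opposite directions.

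Of 12 kinase, STAT and adaptor genes, 7 were called higher in CM and none lower, led by Jak2 at 3.59, and their median log2 fold change was 0.64. Of 9 brakes, 6 were higher and 1, Pias3 at -0.80, was lower. Cish, a SOCS family gene, had the largest rise at 9.90, and the median of the list was 1.97. Of 16 known STAT3 target genes, 13 were higher, led by Socs3 at 7.54, and 1, the cyclin gene Ccnd1, was lower at -3.22, with a median of 2.79. Among 3 genes of receptor shedding, the process that cuts the IL-6 receptor from the cell surface, Rhbdf2 was higher at 1.64 and Adam17, the protease gene, was lower at -0.88. Of 11 genes that control Il6 transcription or mRNA decay, 7 were higher, led by Zc3h12a, whose product degrades Il6 mRNA, at 3.76, and Atf3 was lower at -0.87. The median over all genes tested was -0.0050.

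With ruxolitinib in CM, 6 of the 55 genes were called lower and none higher, where 2.13% and 1.2% of all genes were. The lower ones included the brakes Socs2 at -1.90, Cish and Ptpn1, and the STAT3 list's Timp1 at -1.98 and Il4ra. The list medians were -0.44 for the brakes and -0.24 for the STAT3 targets, beside 0.0071 over all genes. No gene of the other ligands, other receptors, shedding or Il6 control lists was called. With the replicate block, 4 rather than 2 STAT3 targets and 1 rather than none of the Il6 control genes were called lower. In that fit 3.56% of all genes were called lower. In DMEM, 2 of the 55 genes were called lower with ruxolitinib and none higher, where 0.97% of all genes were called. Socs1 was the lower brake at -1.76, at low means of 0.914 CPM in DMEM and 0.255 CPM in DMEM + Rux. The interaction was called for Socs1 at 1.499 (adjusted p = 0.030, edgeR), where 0.234% of all genes were called higher. With the replicate block, 1 brake and 3 STAT3 targets were also called lower and 1 Il6 control gene higher in the interaction (a gene of 2 lists counts in each), where 1.59% and 2% of all genes were.

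When IKK-16 was added, 19 of the 55 genes were called lower and 1 higher, where 3.66% and 4.07% of all genes were. All 3 other ligands tested were lower, and Il27, the gene of an IL-27 subunit, fell the most at -2.48 (adjusted p = 2.5e-04, edgeR). None of the 3 other receptors was called. Stat5a led the 3 lower genes of the kinase and STAT list at -1.31, Socs1 the 4 lower brakes at -1.56, and Rhbdf2 was the lower shedding gene at -0.52. Of the STAT3 targets, 6 were lower, led by Lcn2 at -3.19, an iron-binding acute phase gene, and Ccnd1 was higher at 2.08. Zfp36, another factor that destabilizes cytokine mRNA, led the 2 lower Il6 control genes at -1.16. With the replicate block, 4 Il6 control genes were lower, the brakes had 1 higher and 3 lower, and the STAT3 targets had 2 higher and 8 lower. In that fit 5.81% of all genes were called higher and 5.04% lower. The list medians were -1.44 for the other ligands and -0.57 for the STAT3 targets, beside -0.0019 over all genes.

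**Figure D4:**
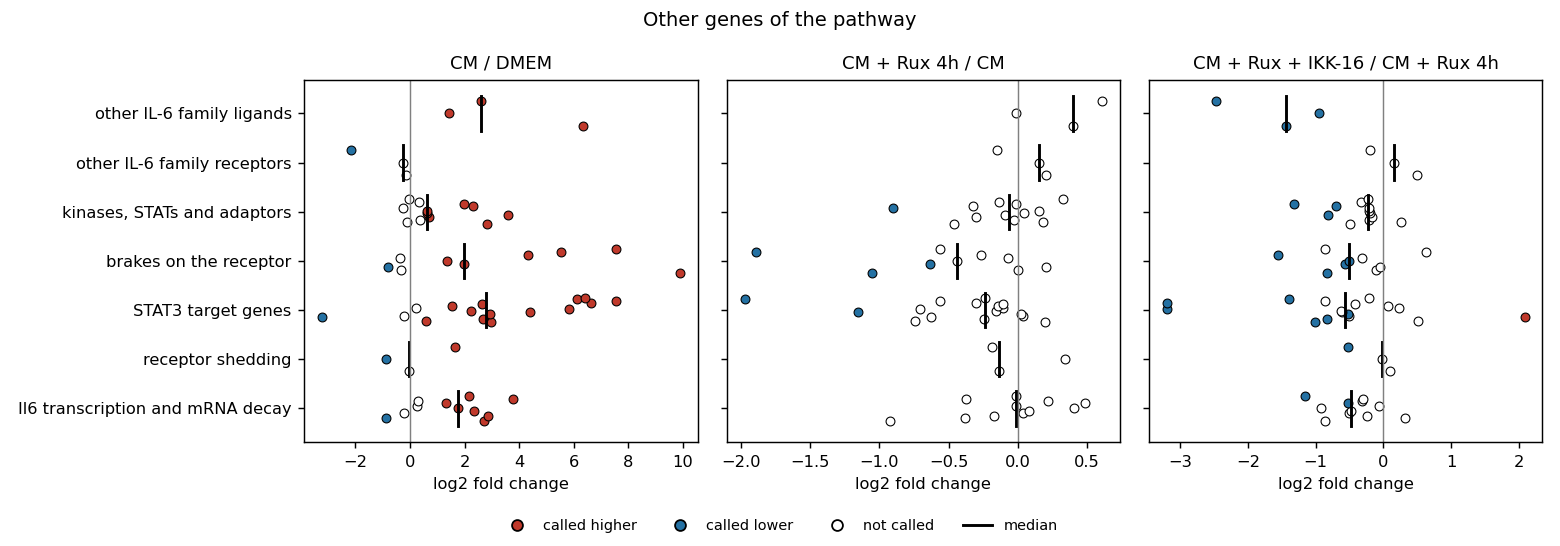
Log2 fold changes (x axes, scaled by panel) of the tested genes of 7 pathway lists in 3 comparisons. Red points were called higher, blue lower and open points were not called, and black bars are list medians. In CM against DMEM 36 of 55 genes are red, where 20.9% of all genes were called higher. With IKK-16 added to CM + Rux 19 are blue, where 3.66% of all genes were called lower.

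Compared with CM alone, both inhibitors together left 26 of the 55 genes lower and 2 higher, where 6.13% and 6.6% of all genes were. The list medians were -1.20 for the brakes and -0.65 for the STAT3 targets, beside 0.00027 over all genes. Il27 at -1.86, Stat5a at -1.33, Cish at -1.89, Lcn2 at -3.90, Rhbdf2 at -0.71 and Arid5a, whose product stabilizes Il6 mRNA, at -1.79 were the largest falls of their lists. Il11ra1 at 0.70 and Ccnd1 at 1.45 were the 2 higher genes. Against DMEM, the rises of Clcf1, Jak2, Cish, Socs3, Rhbdf2 and Zc3h12a were still the largest of their lists, at 6.74, 3.50, 8.84, 6.98, 1.45 and 3.38 in CM + Rux and 5.30, 2.68, 8.01, 6.12, 0.93 and 3.08 with IKK-16. Lifr stayed low, at -2.31 and -2.50. Other largest falls were Ccnd1 (-3.85 and -1.77), Adam17 (-0.55 and -0.57) and Atf3 (-1.25 and -0.93) in the same order of groups, with Pias3 at -0.59 in CM + Rux and Ptpn6 at -0.75 with IKK-16.

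In the 2h samples against the 4h samples, 9 of the 55 genes were higher and 9 lower, where 12.6% and 10.7% of all genes were, and nothing is read from these counts. Clcf1 at 1.24 and Lifr at 1.47 were the called ligand and receptor, both higher as Lif was. Stat5a at 1.22, Cish at 0.80, Ccnd1 at 2.61 and Rel, an NF-κB subunit gene, at 0.93 were the largest rises of their lists. Gab1 at -0.80, Socs1 at -1.80, Saa3 at -3.12 and Atf3 at -1.37 were the largest falls.

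Markers of other cell types were at low levels, with exceptions that moved with the groups. The B cell list had a sum of 80.2 to 144 CPM in DMEM, 88.0 to 141 in DMEM + Rux, 55.7 to 71.4 in CM + Rux 2h and 10.6 to 15.6 in the other CM groups. Nearly all of it was Ighm, with 2 of the 6 genes tested and the defining gene Pax5 at 0 throughout. The dendritic cell list had 1.02 to 2.28 CPM in the DMEM groups, 13.6 to 17.2 in CM + Rux 2h and 3.61 to 11.1 in the other CM groups, with 2 of its 6 genes tested. The neutrophil list, with 1 of 8 tested and Ly6g at 0 throughout, had 0.236 to 0.491 CPM in the DMEM groups, 1.72 to 3.24 in CM, 1.65 to 2.34 in CM + Rux, 0.387 to 1.17 in CM + Rux 2h and 0.876 to 1.95 in CM + Rux + IKK-16. T and NK cell markers summed to 4.81 to 13.1 CPM with 1 of 8 tested, and fibroblast markers to 5.83 to 20.9 CPM with 4 of 6 tested. Nearly all of the T and NK cell sum was Cd4, with Cd3g, Cd8a, Trac and Ncr1 at 0 throughout. The part of such cells in the changes of the family was not tested.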

How the data were processed

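BMDMs of 6 groups (16 samples) were analysed by RNA-seq of stranded mRNA libraries. The authors trimmed reads with Trimmomatic 0.33, aligned them to GRCm38 with HISAT2 2.1.0 and counted fragments per gene with featureCounts 1.6.2, and the deposited values are whole-number counts without scaling. Per the file header, fragments were counted on the reverse strand when both ends aligned with a mapping quality of at least 10. Symbols came from a GRCm38 annotation for 55141 of 55487 identifiers. The filter, the RLE scaling and both thresholds follow the methods of the paper. 1 model of 6 groups was fitted with edgeR 4.0.16 in R 4.3.3, and DESeq2 1.42.0 and other alternatives were tried. The test was also run on simulated counts with the same spread for every gene and no pairing. That run does not bear on the calls of single members, whose spread differs. Confidence intervals are at 95%. A fold against a group at 0 was computed against 3 counts in the library where these weigh most.

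Replicate numbers come from the labels. Deviations of same-numbered samples from their group means correlated at 0.39 to 0.63 among CM, CM + Rux and CM + Rux + IKK-16. The main model did not use this pairing, so p-values are unpaired unless the replicate block is named. With DMEM and the 2h group only 2 pairs exist.

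Named were all 6 members, the called gene of each pathway list with the largest rise and fall, and the 2 genes nearest to each tested member. Further genes called in the lists were named after their values were seen. A gene of the lists that the rule names is not reported here. The members and lists were chosen with earlier results of these data known. Python 3.11.15, pandas 2.3.3, numpy 2.4.6 and matplotlib 3.10.9 were used for other steps.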

Additional observations from a re-analysis of the deposited data

Results flagged for a closer look

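Without the replicate block, the members and list genes whose response to ruxolitinib differed between CM and DMEM were Il6ra, with an interaction of -1.30 (95% interval -1.78 to -0.82, adjusted p = 0.026, edgeR), and Socs1, a brake on the receptor, with 1.499 (adjusted p = 0.030, edgeR). Il6ra was lower with ruxolitinib in 3 of 3 CM samples, all below the range without it, while the samples in DMEM overlapped. Its adjusted p ranged from 7.1e-06 to 0.13 over 23 alternatives. Socs1 had log2 fold changes with ruxolitinib of -1.76 in DMEM (adjusted p = 9.8e-04, edgeR) and -0.26 in CM (adjusted p = 0.29, edgeR). Its means were only 0.914 CPM in DMEM and 0.255 CPM in DMEM + Rux, so the interaction of Socs1 rests on low levels. With the replicate block Il6ra had -1.37 (adjusted p = 6.9e-04, edgeR), and further list genes were called.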

How the results depend on the processing

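Of 225 recomputed counts of members called, 205 stayed within 1.5 times the main count. In a model of only the groups compared, 1 member was called for CM + Rux against CM, 1 for CM + Rux + IKK-16 against CM + Rux and 0 for the interaction, where the main counts were 2, 2 and 1. There the adjusted p of Lif was 0.062 and 0.069 and that of Il6ra 0.065. Leaving out a sample gave 0 to 1 for the interaction and 1 to 2 for each of the other comparisons among CM, CM + Rux and CM + Rux + IKK-16.

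Of 988 recomputed fold changes of members, 941 kept their direction and their side of the thresholds, 32 lost the call, 5 gained it and 10, none of them called, changed sign. Over fits that each left out a sample, and for both inhibitors against CM, Lif ran from -0.33 (without CM + Rux + IKK-16 replicate 2) to 1.24 and Il6st from -0.11 to 0.068 (without the same sample). Osm with both inhibitors against CM + Rux ran from -0.57 to 0.048, with positive values without CM + Rux replicate 2 (0.048) or CM + Rux + IKK-16 replicate 3 (0.011). Ruxolitinib in DMEM gave Osm from -0.17 (without DMEM + Rux replicate 3) to 0.22, Il6st from -0.077 (without DMEM replicate 1) to 0.26, and Il6ra from -0.27 to 0.30, positive without DMEM replicate 2 (0.30), DMEM + Rux replicate 1 (0.0032) or DMEM + Rux replicate 3 (0.070), and 0.067 with the replicate block. The cause of these changes was not tested.

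The replicate block left the count of members called at 2 for CM + Rux against CM and at 2 for CM + Rux + IKK-16 against CM + Rux, and raised it to 3 for CM + Rux + IKK-16 against CM. Among the comparisons with 2 pairs it changed the call of Osm in the 2h group against the 4h group (-0.66, adjusted p = 0.035, edgeR) and no other member's. All 16 samples correlated best with their own number. Over all genes, 412 were called for CM + Rux against CM, with 745 under the block, 685 with no filter on low counts, 258 on leaving out CM replicate 2 and 243 on leaving out CM + Rux replicate 1. For the interaction 51 were called, with 444 under the block, 349 with no filter, 234 by DESeq2, 242 by the likelihood ratio test and 17 to 114 when a sample was left out. In the other comparisons the count over all genes stayed within 1.5 times the main count.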
